A study of Mus musculus with 4 samples.

Results

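A stretch of mouse chromosome 11 from position 91000000 to 105000000 (mm9), 14 Mb long, was examined CpG by CpG, leaving out 96.05 to 96.24 Mb. It held 5106 of the 342324 autosomal CpGs that had at least 5 reads in all 4 libraries of the study. Member CpGs were those at 0% methylation in Sca1-BCL6Δ and at 60% or more in wild-type cells of the same type. There were 9 members in B cells and 9 in haematopoietic stem and progenitor cells (HSPCs), 18 different CpGs, and no CpG met the rule in both cell types. Members and segment alike were chosen by the genotype difference in methylation, so those values are described below without a test.

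The assay was reduced representation bisulfite sequencing (RRBS), which reads the ends of MspI and TaqI fragments after unmethylated cytosines have been converted. The 4 libraries paired wild-type with Sca1-BCL6Δ, once for HSPCs and once for B cells. HSPCs were Sca1+Lin- cells of bone marrow and B cells were mature B220+ cells of peripheral blood. Each group was 1 library of DNA pooled from 6 to 9 mice, so no value has a replicate and every comparison is between libraries. Labels give the strain background CBAxC57BL/6J for both genotypes. Per the methods text, a loxP-flanked Bcl6 and eGFP cassette in a vector built on the Ly6 (Sca1) gene was injected into eggs of that cross. The resulting 2 transgenic lines were bred to mb1-Cre mice, in which Cre sits in the B lineage gene Cd79a, to give Sca1-BCL6Δ. Which line was used, the ages of the mice, the strain of the mb1-Cre mice and whether the same mice gave both cell types are not given in the sources used here.

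Most CpGs of a mammalian genome are methylated, and CpG-rich promoters are the main exception. Bisulfite sequencing reports a cytosine as methylated when it is still read as C, so an allele that carries T in place of C at a CpG is read as unmethylated in every cell. In a cross of inbred strains, a stretch inherited from one strain carries all of that strain's variants together over many megabases. The left-out stretch surrounds the Hoxb cluster, and the segment also holds Ikzf3, a transcription factor gene of the B lineage, the type I keratin genes and Stat3. No gene is assigned to single CpGs, because an mm9 annotation was not used here. No list of strain variants was used either, so whether a sequence difference lies at any member was not tested.

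In B cells the members made up 0.176% of the segment's CpGs (9 of 5106; 95% Wilson interval 0.0928 to 0.335%). The share was 0.0369% on the rest of chromosome 11 (8 of 21684; interval 0.0187 to 0.0728%) and 0.0193% on the other autosomes (61 of 315301; interval 0.0151 to 0.0248%), with 0.0231% over all autosomes. The segment's share was thus 4.78 times that of the rest of the chromosome and 9.11 times that of the other autosomes. The first ratio was 2.98 with a minimum of 3 reads, and 1.74 where the 60% level was asked of wild-type HSPCs in place of wild-type B cells. It held 11.4% of all autosomal B cell members on 1.49% of the CpGs. Among 2072 other windows of 14 Mb on the other autosomes, the fullest held 5 B cell members, on chromosome 15. These windows start 1 Mb apart and overlap, and their counts are not scaled to covered CpGs. The segment was itself chosen by this genotype difference, so its rank among them is a description. These intervals, and the limits given for counts of 0, cover counting error only, because reads made by PCR without molecular identifiers need not be separate molecules. At members, the limits also leave out that the CpGs were chosen for that 0.

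In HSPCs the segment did not stand apart to the same degree. The 9 members there made up 0.176% of the segment's CpGs (interval 0.0928 to 0.335%), beside 0.126% over all autosomes. The rest of chromosome 11 had 0.134% (29 of 21684; interval 0.0931 to 0.192%) and the other autosomes had 0.124% (392 of 315301; interval 0.113 to 0.137%). Ratios to these were 1.32 and 1.42, and the segment held 2.09% of all HSPC members. Over CpGs at 60% or more in wild-type the ratio to the rest of the chromosome was 1.54 in HSPCs and 5.44 in B cells. The HSPC share was therefore nearer its background than the B cell share.

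The opposite pattern, 0% in wild-type and 60% or more in Sca1-BCL6Δ, was found at 1 CpG of the segment in B cells, against 0.014% of all autosomal CpGs. In HSPCs it was found at 6 CpGs (0.118% of the segment), against 0.0999% of all autosomal CpGs. In B cells the segment had 9 CpGs at 0% in Sca1-BCL6Δ and 1 at 0% in wild-type. The rest of chromosome 11 had 8 and 9, and the other autosomes had 61 and 38. The segment was chosen by this genotype difference, so its lean in direction is a description. The 0 CpGs that met the member rule in both cell types allow a share of up to 0.0588% of the segment's CpGs, and the count was also 0 over all autosomes.

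Counted per 1 Mb, B cell members were absent from 91 to 94 Mb, which holds few covered CpGs (19, 34 and 76 per Mb). There were 2 between 94 and 95 Mb, 2 between 95 and 96 Mb, and 1 each in the Mb that start at 96, 97, 99, 100 and 103. In all, 7 of the segment's 14 bins held a B cell member, against 8 of the other 105 bins of the chromosome, none of which held more than 1. HSPC members lay in 5 bins, with 3 in the Mb from 102, and the other 105 bins held up to 4.

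**Figure D1:**
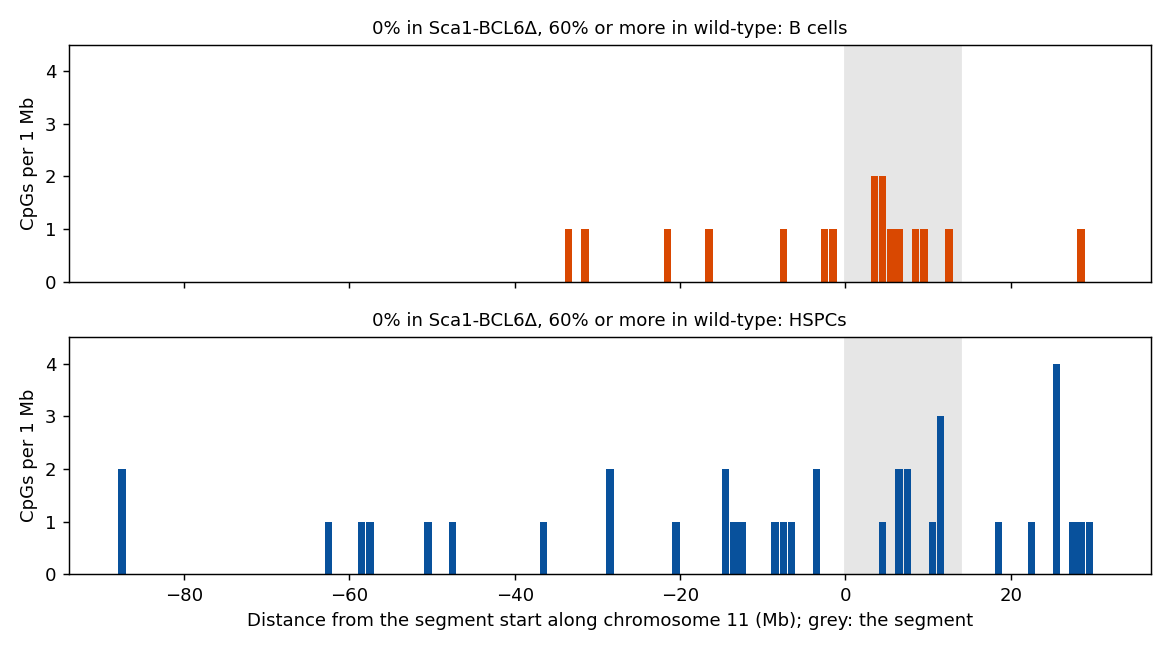
Member CpGs per 1 Mb along chromosome 11, as counts on the vertical axis against distance from the segment start in Mb, for B cells (top) and HSPCs (bottom); grey marks the segment. B cell bars crowd in and just left of the grey area, while HSPC bars are spread over the chromosome, with 9 inside and 29 outside.

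The segment's left end did not coincide with an edge in the B cell pattern. The nearest B cell member inside that end lay 3.99 Mb from it, and the nearest outside lay 1.42 Mb from it, at position 89579977. There, methylated reads were 5 of 6 (wild-type) and 3 of 5 (Sca1-BCL6Δ) for HSPCs, and 12 of 14 (wild-type) and 0 of 5 (Sca1-BCL6Δ) for B cells. The next outside, at 88976052, had 8 of 9, 2 of 5, 9 of 12 and 0 of 7 methylated reads in the same order of libraries. Both outside CpGs were picked by the member rule, so their B cell pattern was fixed by that choice. Both had some methylated reads in Sca1-BCL6Δ HSPCs, as did all 8 B cell members on the rest of chromosome 11. That likeness therefore does not tie them to the segment. On the right, the last member inside lay 1.34 Mb from the end and the nearest outside lay 14.06 Mb beyond it, at 119060417. That CpG differed from the others in HSPCs, with 2 of 28 methylated reads in wild-type and 6 of 8 in Sca1-BCL6Δ. HSPC members lay 4.9 Mb inside and 3.14 Mb outside the left end, and 2.11 Mb inside and 4.51 Mb outside the right end. The outside ones, a pair at 87861397 and 87861414 and a single CpG at 109511418, were at 60 to 62.5% in wild-type HSPCs and at or below 28.6% in both B cell libraries.

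Among the B cell members, position 95835311 had one of the clearest patterns. HSPCs had 17 of 17 methylated reads when wild-type and 1 of 6 when Sca1-BCL6Δ, and B cells had 15 of 16 when wild-type and 0 of 14 when Sca1-BCL6Δ. Both Sca1-BCL6Δ libraries were low there and both wild-type libraries were high. At a CpG not chosen for its 0, a count of 0 of 14 reads would allow up to 21.4%. At 100491341 the methylated reads were 10 of 16, 1 of 5, 16 of 18 and 0 of 14 in the same order. At 97573797 they were 5 of 6, 4 of 7, 13 of 15 and 0 of 12. Here Sca1-BCL6Δ HSPCs, at 57.1% (4 of 7 reads), were closer to the wild-type libraries than to their own genotype's B cells.

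A pair of members 2 bases apart, 94990049 and 94990051, were read on the same fragments. At the first, HSPCs had 8 of 14 methylated reads in wild-type and 2 of 5 in Sca1-BCL6Δ, and B cells had 13 of 14 in wild-type and 0 of 10 in Sca1-BCL6Δ. The second had 9 of 13, 2 of 5, 13 of 14 and 0 of 10. These CpGs count as 2 members but are 1 set of reads. At 103659169, the right-most member, the values were 5 of 14, 4 of 10, 13 of 19 and 0 of 15, so the HSPC libraries of both genotypes were at intermediate levels. The remaining members were at 95405610, 96724680 and 99238555, with 5 to 8 reads each in Sca1-BCL6Δ B cells, where a count of 0 allows 37.5% or more.

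Summed over the 9 B cell members, Sca1-BCL6Δ B cells had 0 methylated of 95 reads, and wild-type B cells had 106 of 123 (86.2%). That 0 was fixed by the choice of members, so it bounds no level. The library pair that did not choose them had 67 of 109 reads methylated in wild-type HSPCs (61.5%; interval 52.1 to 70.1%) and 21 of 58 in Sca1-BCL6Δ HSPCs (36.2%; interval 25.1 to 49.1%). In Sca1-BCL6Δ HSPCs the 9 levels ran from 16.7 to 57.1% with a median of 40.0%, and none was at 0%. The 0% in Sca1-BCL6Δ B cells was the rule's own, so a higher level in the library not chosen on does not set the 2 apart. Members on the rest of chromosome 11 and on the other autosomes were also part methylated in Sca1-BCL6Δ HSPCs, at 55.8% and 39.4% of pooled reads. Sca1-BCL6Δ was below wild-type in HSPCs at 8 of the 9, with a median difference of -26.2 percentage points (range -83.3 to 4.29). The 8 include both CpGs of that pair, and 99238555 at only -2.08 points. Members chosen in the same way on the rest of chromosome 11 were lower at 5 of 8 (median -16.7 points), and those on the other autosomes at 20 of 61, with a median of 2.5 points. With 5 to 10 reads per CpG in Sca1-BCL6Δ HSPCs, single levels are loose, and the 1 member with 10 reads in every library, at 103659169, was higher in Sca1-BCL6Δ HSPCs (40.0%) than in wild-type (35.7%).

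**Figure D2:**
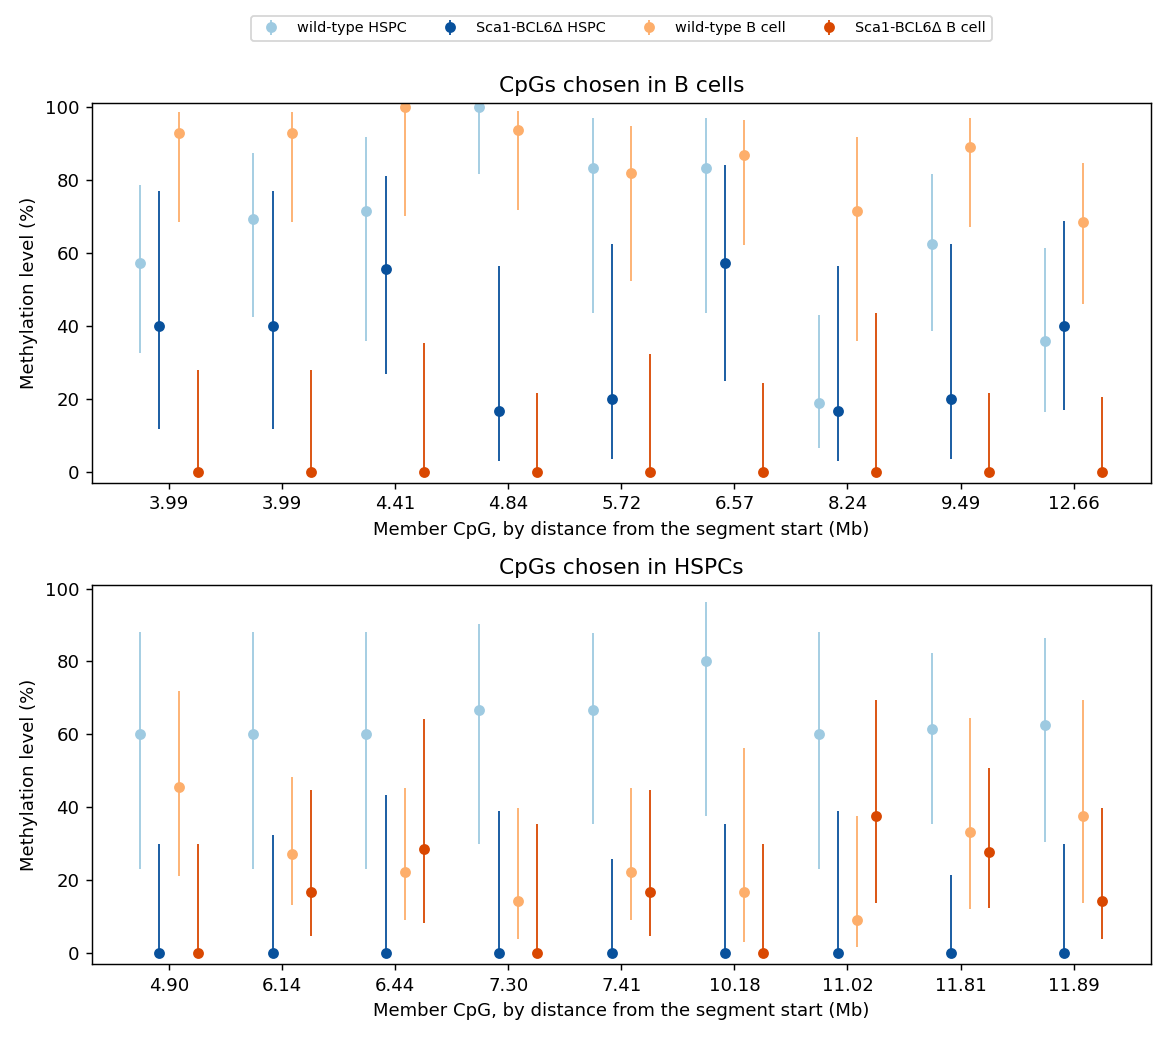
Methylation level (%) of each member CpG in the 4 libraries, with 95% Wilson intervals as bars, ordered by distance from the segment start in Mb; the top panel shows CpGs chosen in B cells and the bottom panel those chosen in HSPCs. In the top panel Sca1-BCL6Δ HSPCs lie between 16.7 and 57.1%, and Sca1-BCL6Δ B cells are at the 0% for which the CpGs were chosen. In the bottom panel both B cell libraries stay at or below 45.5%.

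The 9 members chosen in HSPCs had lower levels in wild-type B cells than those chosen in B cells. Wild-type HSPC levels were 60 to 80%, from 5 to 13 reads, and Sca1-BCL6Δ HSPCs had 0 methylated of 75 reads. In wild-type B cells the same CpGs ran only from 9.09 to 45.5% (29 of 117 reads, 24.8%; interval 17.8 to 33.3%), whereas the Sca1-BCL6Δ library of that cell type ran from 0 to 37.5% (16 of 96 reads, 16.7%; interval 10.5 to 25.4%). CpGs chosen in HSPCs elsewhere were alike. On the rest of chromosome 11 and on the other autosomes, they were at 22.8 and 25.2% in wild-type B cells and 15.7 and 21.9% in Sca1-BCL6Δ B cells. The low B cell levels are therefore not particular to the segment. None of the segment's 9 reached 60% in wild-type B cells, whereas all 9 B cell members were by their choice at 68.4% or more there. The deepest, at 102807871, had 8 of 13 (wild-type) and 0 of 14 (Sca1-BCL6Δ) methylated reads for HSPCs, and 3 of 9 (wild-type) and 5 of 18 (Sca1-BCL6Δ) for B cells. At 98412420 the reads were 6 of 9, 0 of 11, 4 of 18 and 2 of 12 in the same order, and at 102889920 they were 5 of 8, 0 of 9, 3 of 8 and 2 of 14. B cells of both genotypes thus held some methylated reads at the CpGs just named, which were chosen for holding none in Sca1-BCL6Δ HSPCs. In Sca1-BCL6Δ B cells 3 of the 9 were at 0%, beside 10 of 29 on the rest of chromosome 11 and 83 of 392 on the other autosomes. At 98300093 the reads were 4 of 6, 0 of 6, 2 of 14 and 0 of 7 in that order. At 101177254 they were 4 of 5, 0 of 7, 1 of 6 and 0 of 9. The CpG at 95896440 was at 0 of 9 reads in both Sca1-BCL6Δ libraries, beside 3 of 5 in wild-type HSPCs and 5 of 11 in wild-type B cells. That CpG was low in both Sca1-BCL6Δ libraries but missed the B cell rule at a wild-type level of 45.5%.

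Neighbouring CpGs within 36 bp, the length of read used for alignment, also differed in level between the member sets. B cell members were chosen at 60% or more in wild-type B cells, where HSPC members were at 24.8%. The contrast between their neighbours may therefore follow from the choice of members. Neighbours of members outside the segment were not measured, so whether the neighbour levels are particular to the segment was not tested. The 12 neighbours of B cell members with at least 5 reads in every library were mostly methylated, with pooled levels of 73.0% (wild-type) and 73.2% (Sca1-BCL6Δ) for HSPCs, and of 77.9% (wild-type) and 70.7% (Sca1-BCL6Δ) for B cells. At 5 of the 9 members Sca1-BCL6Δ B cells were thus at 0% amid part or fully methylated neighbours, and 2 members had no neighbour with 5 reads in every library. The 24 neighbours of HSPC members were at 12.2%, 0.314%, 3.01% and 2.56% in the same order. In wild-type HSPCs these neighbours ran from 0 to 50%, and 4 further neighbours, of 102017522 and with 3 or 4 reads there, were at 66.7 to 75%. The members at 95896440 and 97435102 had no covered neighbour.

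At 95835311 the neighbours 13 and 29 bases downstream had 14 of 15 and 15 of 15 methylated reads in Sca1-BCL6Δ B cells, while the member had 0 of 14. At 97573797 the CpGs 2 bases before and 8 bases after it both had 12 of 12 in that library. At 100491341 those 12 bases before and 6 bases after it had 12 of 14 and 14 of 14. In each case the drop was 1 CpG wide. At 96724680 and 103659169 the neighbours of the member were methylated in 4 of 8 and 10 of 17, and in 9 of 15 and 9 of 15, Sca1-BCL6Δ B cell reads. The pair at 94990049 and 94990051 was the exception, as its 2 neighbours were also unmethylated in 10 of 10 Sca1-BCL6Δ B cell reads, beside 7 of 14 and 4 of 14 methylated reads in wild-type B cells.

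**Figure D3:**
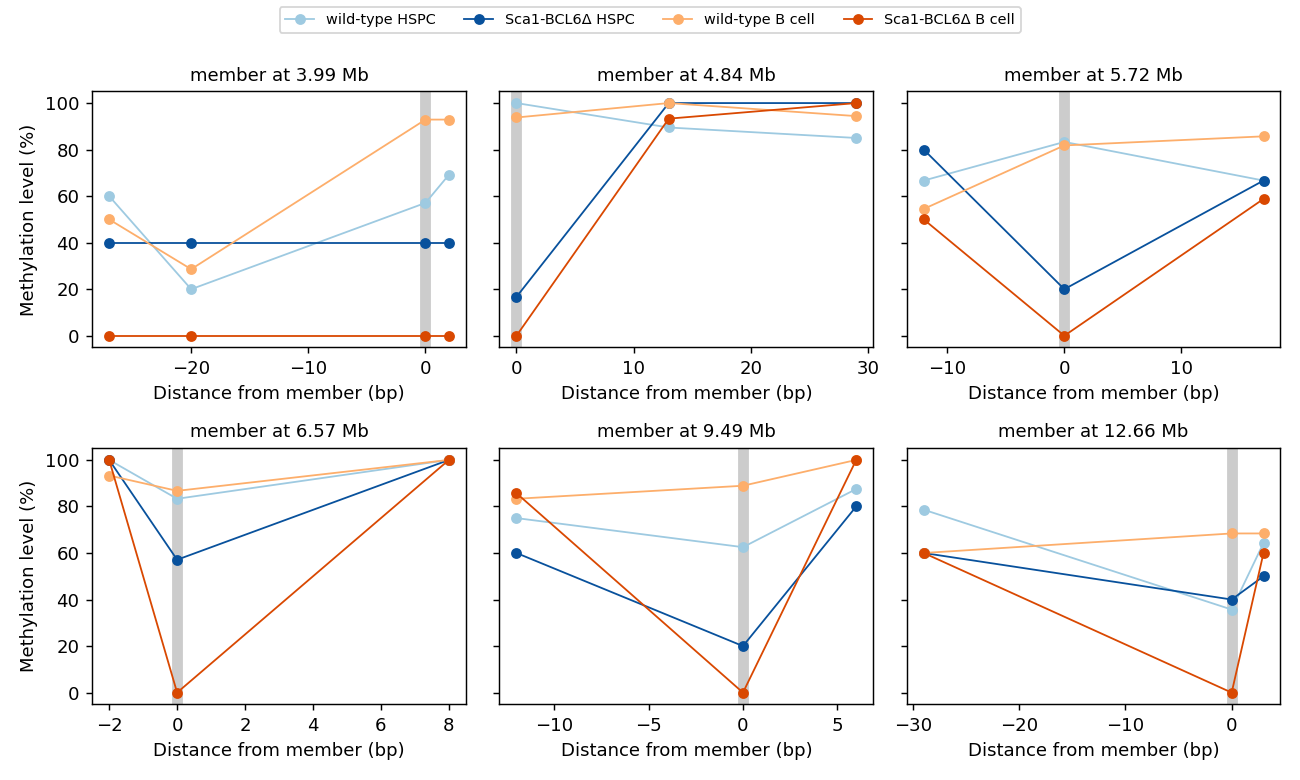
Methylation level (%) of 6 B cell members and their neighbours with at least 5 reads in all 4 libraries, against distance from the member in bp; lines join CpGs of 1 library and grey marks the member (the first panel holds a second member 2 bp away). In 5 panels Sca1-BCL6Δ B cells fall to 0% at the member alone, and in the first they are at 0% throughout.

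Single reads carried the members and their neighbours together. Their counts in the B cell libraries follow from the choice of members and are given as a description. In Sca1-BCL6Δ B cells, 13 of 14 reads across 95835311 were methylated at all but 1 of their CpGs, as were 12 of 12 across 97573797 and 12 of 14 across 100491341. In wild-type B cells the corresponding counts were 2 of 16, 3 of 15 and 5 of 18. Sca1-BCL6Δ HSPCs had 5 of 6, 3 of 7 and 1 of 5. At 96724680, with part methylated neighbours, such reads were 4 of 8 in Sca1-BCL6Δ and 6 of 11 in wild-type B cells, and at 103659169 they were 7 of 15 and 6 of 19. With 8 to 19 reads each, these counts give no clear order of the genotypes, and the differences were not tested. The read tables give the number of methylated CpGs per read, not which CpG is unmethylated. At 94990049, 10 of 10 Sca1-BCL6Δ B cell reads had none of their CpGs methylated, whereas the 5 Sca1-BCL6Δ HSPC reads divided into 3 with none and 2 with all methylated. The 14 wild-type B cell reads there were 1 with none, 10 with part and 3 with all CpGs methylated.

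CpGs at 80% or more in wild-type B cells place these members against all highly methylated CpGs. In the segment, 7 of 1297 such CpGs were at 0% in Sca1-BCL6Δ B cells (0.54%; interval 0.262 to 1.11%). All 7 were B cell members, so this count repeats the member rule at a stricter cut and is not separate evidence. On the rest of chromosome 11 the count was 4 of 6417 (0.0623%) and on the other autosomes 6 of 107101 (0.0056%). By contrast, levels just above 0 to 20% were seen at 2 of the 1297 CpGs, and 91.6% of them (interval 90.0 to 93.0%) were at 80% or more in Sca1-BCL6Δ B cells, beside 92.8% on the rest of chromosome 11 and 93.4% on the other autosomes. Most of these CpGs thus kept a high level in Sca1-BCL6Δ B cells, and 7 were at exactly 0%. In Sca1-BCL6Δ HSPCs 0 of the 1297 were at 0%, which allows up to 0.231%. Between 20 and 40% lay 18 (1.39%, interval 0.88 to 2.18%), beside 0.577% on the rest of chromosome 11 and 0.557% on the other autosomes. Wild-type HSPCs had 3.39% (interval 2.54 to 4.52%) in that class, beside 2.57 and 2.72%. Levels above 0 to 20% in Sca1-BCL6Δ HSPCs were seen at 0.0771% of the 1297, beside 0.14 and 0.107%. Wild-type HSPCs were at 0% at 5 of the 1297 (0.386%; interval 0.165 to 0.899%), beside 0.156 and 0.106%.

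**Figure D4:**
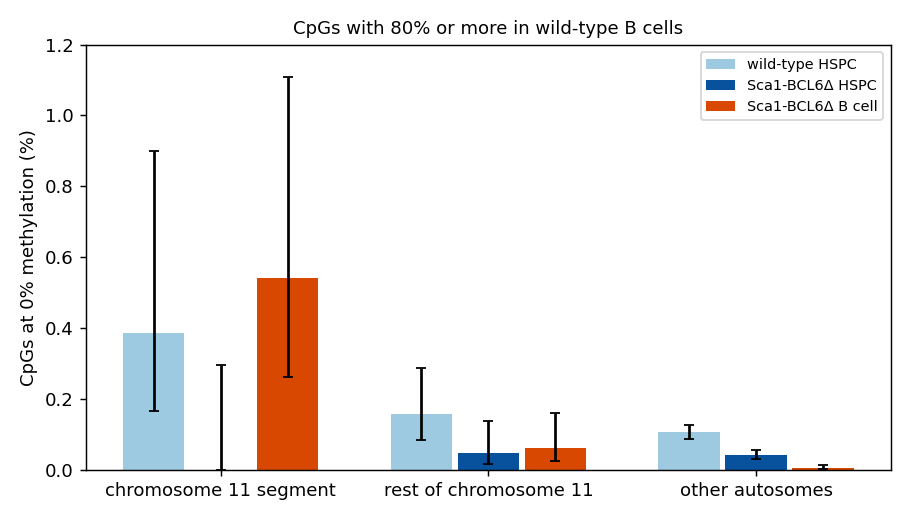
Share (%) of CpGs at 0% methylation among those at 80% or more in wild-type B cells, by region and library, with 95% Wilson intervals. Sca1-BCL6Δ B cells are highest in the segment, at 0.54%, and lowest on the other autosomes, at 0.0056%; Sca1-BCL6Δ HSPCs have no such CpG in the segment. The CpGs behind the segment's Sca1-BCL6Δ B cell bar are all members, chosen for that level.

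Coverage, which the rule used only as a minimum, also differed between the libraries along the segment. Of CpGs with at least 20 reads in wild-type B cells and 8 in wild-type HSPCs, 95 of 2271 in the segment had no read in Sca1-BCL6Δ B cells (4.18%; interval 3.43 to 5.09%), against 0.757% over all autosomes. These CpGs formed 68 separate stretches. The rest of chromosome 11 had 1.21% (interval 1.0 to 1.45%) and the other autosomes 0.665% (interval 0.623 to 0.71%). In Sca1-BCL6Δ HSPCs, 20 of the same 2271 CpGs had no read (0.881%; interval 0.571 to 1.36%), against 1.34% over all autosomes. Unread CpGs were thus more frequent in the segment in the B cell library alone among the 2 Sca1-BCL6Δ libraries.

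The unread CpGs were at all methylation levels. At 94491009 to 94491025, 4 CpGs had 25 to 52 reads in wild-type B cells, 13 in wild-type HSPCs and 6 in Sca1-BCL6Δ HSPCs, and were unread in Sca1-BCL6Δ B cells, at 5.51% methylation in wild-type B cells. At 96373326 to 96373342, 4 CpGs had 22 to 23, 17 to 18 and 6 reads in the same order, at 96.7% in wild-type B cells. Of the 95 unread CpGs, 87 had at least 1 read in Sca1-BCL6Δ HSPCs, with a median of 3 reads, compared with 9 at the CpGs that Sca1-BCL6Δ B cells did cover. Relative to wild-type HSPCs this was a median of 0.25 against 0.667. CpGs unread in Sca1-BCL6Δ B cells elsewhere showed a like drop, to 0.2 on the rest of chromosome 11 and 0.182 on the other autosomes, so the drop is not particular to the segment.

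Along the chromosome the share of CpGs unread in Sca1-BCL6Δ B cells changed in steps that did not match the segment's left end. The limits of the intervals that follow were chosen after the per-Mb values were seen. From 3 to 84 Mb it was 0.945% (57 of 6032) and from 84 to 87 Mb it was 1.63%. From 87 to 91 Mb, outside the segment, it was 9.59% (35 of 365; interval 6.98 to 13%), and from 93 to 98 Mb it was 8.33% (75 of 900; interval 6.7 to 10.3%). From 98 to 104 Mb it was 1.02% (13 of 1279), near the rest of the chromosome, and from 104 to 105 Mb it was 10.8% (7 of 65; interval 5.32 to 20.6%). From 105 to 113 Mb it was 0 of 656, which allows up to 0.457%. High shares thus began about 4 Mb left of the segment, were interrupted inside it and ended at its right end. Only 27 such CpGs lay between 91 and 93 Mb, all of them read. Sca1-BCL6Δ HSPCs stayed between 0.0 and 1.96% in all 9 intervals. Of the 17 bins between 87 and 105 Mb with at least 20 such CpGs, 11 reached 4% in Sca1-BCL6Δ B cells and 0 in Sca1-BCL6Δ HSPCs. Of the other 79 bins of the chromosome, 4 and 6 did, and 1 of those 4 lay right of the segment, from 119 Mb, at 4.85%.

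**Figure D5:**
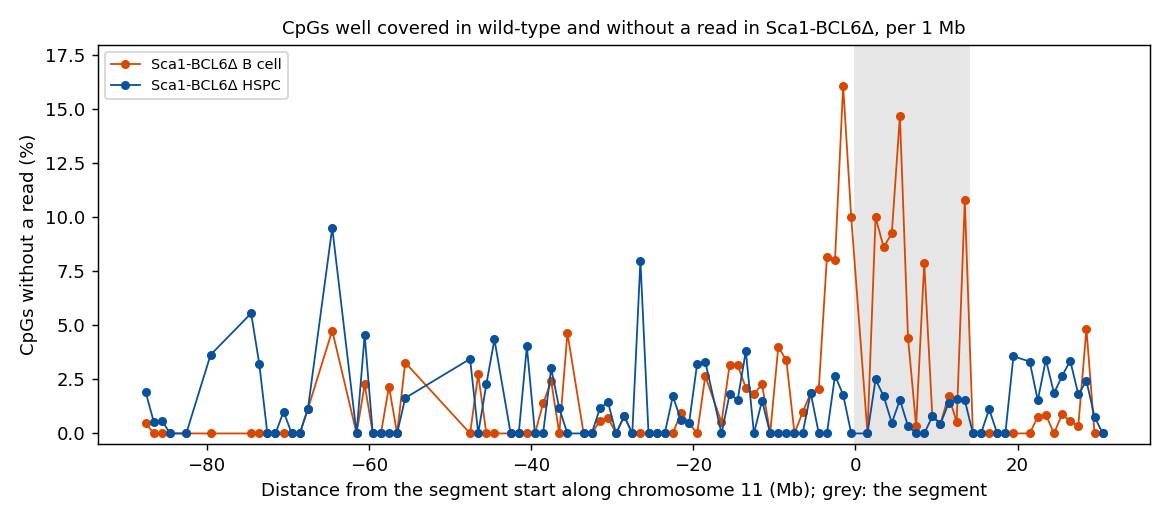
Share (%) of CpGs without a read in each Sca1-BCL6Δ library, per 1 Mb with at least 20 CpGs that have 20 reads in wild-type B cells and 8 in wild-type HSPCs, against distance from the segment start in Mb; grey marks the segment. Sca1-BCL6Δ B cells reach 16.1% left of the segment and 14.7% in it, and are at 0.0% in each Mb just right of it.

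CpGs covered in 1 genotype only were counted next. None of the 5714 CpGs of the segment with at least 5 reads in both Sca1-BCL6Δ libraries lacked reads in both wild-type libraries, which allows up to 0.0525%, against 0.0663% over all autosomes. Chromosomes 5, 12 and 19, compared because such CpGs were frequent there, had 62 of 29399 (0.211%), 51 of 16202 (0.315%) and 67 of 13752 (0.487%). B cell members were 0.0233, 0.0 and 0.0% of the CpGs on those chromosomes and HSPC members 0.12, 0.168 and 0.0929%. In the other direction, 205 of 9929 CpGs of the segment with 5 reads in both wild-type libraries had none in Sca1-BCL6Δ (2.06%), against 1.55% over all autosomes and 1.87% on the rest of chromosome 11. At 10 reads the shares were 0.58%, 0.291% and 0.406% in the same order.

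The comparison of B cells with HSPCs within a genotype was not used to choose members and was tested with Fisher's exact test per CpG, adjusted by Benjamini-Hochberg over all CpGs tested. Such a test compares the reads of 2 libraries, not conditions. In wild-type, 33 of the 4313 segment CpGs covered by 10 or more reads in each library were called, all higher in B cells (0.765%). Over all CpGs tested 0.682% were called higher and 0.0512% lower, and the rest of chromosome 11 had 0.676% called, so the segment was near the background. Only 5 of the 9 B cell members and 0 of the 9 HSPC members had enough reads to be tested in wild-type, and 1 and 2 in Sca1-BCL6Δ, and 0 of these were called.

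The first call by adjusted p was at 95444382, which rose from 8 of 22 methylated reads in wild-type HSPCs to 43 of 44 in wild-type B cells (Fisher's exact test, adjusted p = 0.00022). This CpG had no read in Sca1-BCL6Δ B cells and 1 in Sca1-BCL6Δ HSPCs. At 101283217 methylation rose from 5 of 15 to 34 of 34 reads (adjusted p = 0.00096, Fisher's exact test), with 3 of 8 and 8 of 11 in the Sca1-BCL6Δ libraries. At 94051039 it rose from 0 of 11 to 20 of 22 (adjusted p = 0.001, Fisher's exact test), with 4 of 6 in Sca1-BCL6Δ HSPCs and 7 of 7 in Sca1-BCL6Δ B cells. At 94151561 and 98682569 the Sca1-BCL6Δ HSPC reads were all methylated (10 of 10 and only 2 of 2), whereas wild-type HSPCs had 6 of 23 and 4 of 16. The calls in wild-type picked CpGs that were lower in wild-type HSPCs. A higher level in Sca1-BCL6Δ HSPCs at these CpGs may therefore follow from that choice. At 103949906 wild-type rose from 1 of 21 to 18 of 25 reads (Fisher's exact test, adjusted p = 0.0036), while Sca1-BCL6Δ had 8 of 11 in HSPCs and 1 of 6 in B cells. The genotypes therefore ran in opposite directions at that CpG, a difference that was not tested.

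In Sca1-BCL6Δ, 0 of 1658 CpGs of the segment were called by Fisher's exact test, 35 had an unadjusted p under 0.05, and the background was 0.00915% in each direction. Median coverage at CpGs with 5 reads in all 4 libraries was 11 (wild-type) and 9 (Sca1-BCL6Δ) reads for HSPCs, and 17 (wild-type) and 10 (Sca1-BCL6Δ) for B cells. Fewer CpGs could therefore be tested in Sca1-BCL6Δ, and the difference between the genotypes' counts was not tested. Mean levels over the segment were 31.6, 34.2, 34.8 and 33.9% in the same order.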

How the data were processed

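Each library was sequenced after 18 PCR cycles, per the labels' protocols. Per the methods text, the authors aligned converted reads without gaps to 36-bp end sequences of fragments predicted at 40 to 220 bp. They required a perfect match of 12 bp and a next best alignment with at least 2 more mismatches. Uniquely mapped reads per condition numbered 3378764 to 10295957 there. The build was mm9, per the submitters' processing notes. The aligner's version and any removal of duplicates are not given in the sources used here. Deposited CpG tables held methylated and total read counts for each CpG, and a score for the mean methylation, per the file headers. Deposited read tables held the percent of methylated CpGs and the count of CpGs in each read.

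CpGs covered numbered 1230862 (wild-type) and 1012002 (Sca1-BCL6Δ) for HSPCs, and 1414224 (wild-type) and 1114078 (Sca1-BCL6Δ) for B cells. A level is methylated reads over all reads, and coordinates are 1-based. The tables were joined by position with Python 3.11.15 and pandas 2.3.3. Fisher's exact tests, two-sided, used SciPy 1.17.1 at CpGs with 10 reads in both libraries, with calls where the adjusted p was under 0.05 and levels differed by 20 or more percentage points. The scripts were tested on simulated data. The segment, its members and the comparisons were chosen with earlier results of these data known. CpGs are named from sets drawn by rule, though not every CpG of these sets is named. In each cell type the sets are up to 6 members with the most reads in the shallower library. They also hold the 3 nearest inside and outside each end, and up to 6 development calls per genotype by adjusted p. The members at 96724680 and 101177254 and the unread stretches were named after their values were seen. Alternatives are in the closing section.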

Additional observations from a re-analysis of the deposited data

Results flagged for a closer look

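At 3 members Sca1-BCL6Δ and wild-type differed in opposite directions in the 2 cell types. None of these differences between cell types was tested. The direction in the cell type that chose each member was fixed by the rule, and the reads in the other were few. At 103659169, at 0% in Sca1-BCL6Δ B cells, Sca1-BCL6Δ was 4.29 percentage points above wild-type in HSPCs (4 of 10 methylated reads against 5 of 14). At 97435102, at 0% in Sca1-BCL6Δ HSPCs, Sca1-BCL6Δ was 6.35 points above wild-type in B cells (2 of 7 methylated reads against 4 of 18). At 102017522, also at 0% in Sca1-BCL6Δ HSPCs, it was 28.4 points above wild-type in B cells, with 3 of 8 methylated reads against 1 of 11.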

How the results depend on the processing

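Of 50 alternative values for 16 results, 25 stayed close to the reported value, 23 moved and 2 reversed; the cause was not tested. With 3 reads in all 4 libraries the members were 20 in B cells and 29 in HSPCs (29 and 97 on the rest of chromosome 11), the opposite pattern 4 and 26 (37 and 107), and the shares 0.256% against 0.0858% in B cells and 0.371% against 0.287% in HSPCs, ratios of 2.98 and 1.29. With 10 reads only 1177 CpGs were left, by construction; members were 1 and 0, the opposite pattern 0 in both cell types and the B cell share 0.085%. The HSPC share then reversed against the rest of chromosome 11, at 0.0 against 0.0213%. HSPC levels at the 1 B cell member left turned too, to 40.0% in Sca1-BCL6Δ against 35.7% in wild-type. B cell levels at HSPC members gave no value at 10 reads, since no such CpG was left. A high level of 80% gave 1 HSPC member and an opposite pattern of 0 and 2, and a low level of up to 10% gave an opposite pattern of 2 in B cells. Over CpGs at 60% or more in wild-type the shares were 0.602% in B cells and 0.712% in HSPCs, beside 0.111 and 0.463% on the rest of chromosome 11. Neighbours of HSPC members within 100 bp were at 2.68% in Sca1-BCL6Δ HSPCs, and wild-type-only CpGs at 10 reads numbered 25 (0.58%, beside 0.406% on the rest of chromosome 11). Other alternatives were chosen after seeing the data. Taking the wild-type level from the other cell type gave 16 and 2 members, beside 39 and 6 on the rest of chromosome 11, ratios of 1.74 and 1.42. With 10 reads in only the compared libraries there were 6 B cell members and 1 HSPC member, and 3 and 2 on the rest of chromosome 11. Over 8 of the alternatives, the B cell ratio to the rest of chromosome 11 ran from 1.74 to 8.34 and the HSPC ratio from 0.943 to 2.0. With 10 and 5 wild-type reads, 6.93% of CpGs were unread in Sca1-BCL6Δ B cells and 3.64% in Sca1-BCL6Δ HSPCs. No paired analysis was possible because each group is 1 library and the labels give no replicate numbers.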
